A study of Mus musculus with 16 samples.

Results

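Fibroblast growth factor 2 (Fgf2), the gene Nudt6 that overlaps it, the related ligand Fgf1 and the receptors Fgfr1, Fgfr2 and Fgfr3 were followed in mouse retina after an exposure to bright light. They are 6 of the 18193 genes named on the array. All probe sets annotated to them were taken, which gave 14 of 45037. Of these, 7 of 14 exceeded log2 4 (intensity 16) on 2 or more arrays and were tested. The tested probe sets were 1 of 1 for Fgf2, 2 of 2 for Nudt6, 2 of 3 for Fgf1 and 2 of 3 for Fgfr1. None of the 3 probe sets of Fgfr2 and none of the 2 probe sets of Fgfr3 passed.

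The samples were neural retinas of BALB/c mice, an albino strain, either lacking Nxnl1 (Nxnl1-/-, written KO) or carrying it (Nxnl1+/+, written WT). Nxnl1 encodes RdCVF, a thioredoxin-like factor from rods that keeps cones alive. Animals of both sexes, 11 to 16 weeks old and raised in a cycle of 12 h at 50 lux and 12 h of darkness, spent 16 h in the dark. They then had 1 h of white fluorescent light and 24 h of darkness before the retina was dissected free of the pigment epithelium. At doses of 50, 2500 and 5000 lux there were 3, 3 and 2 arrays of KO and 2, 3 and 3 arrays of WT retinas. Dark adaptation, a light exposure and recovery in the dark were shared by all 6 groups, so the groups at 50 lux are exposed at the rearing intensity and are not untreated. The samples are labelled as biological replicates, with no word on pooling of animals, and the p-values measure the spread between these samples. The sources used here do not give which part of Nxnl1 is missing in KO mice.

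FGF2 is a heparin-binding growth factor that protects photoreceptors and is known to be induced in the retina by injury and by intense light. FGF1 and FGF2 bind receptor tyrosine kinases of the FGFR family. These signal through FRS2, GRB2 and GAB1 to RAS and the kinases MEK and ERK, and Sprouty proteins and dual-specificity phosphatases feed back on that pathway. Nudt6 encodes a protein of the Nudix hydrolase family. It lies on the strand opposite to Fgf2 and is also known as the FGF2 antisense gene, because the ends of both transcripts overlap. In the RefSeq annotation the spans of Fgf2 and Nudt6 overlapped on mouse chromosome 3 on opposite strands. The sources used here do not give which of the probe sets match sequence within the overlap.

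The 250 bases upstream of the annotated starts of Fgf2 and Nudt6 are shown because transcripts of both genes rose with light and their starts lie apart. They are from RefSeq on GRCm38.p6 at chr3:37348403-37348652 on the plus strand for Fgf2 and chr3:37419597-37419846 on the minus strand for Nudt6, each read 5′ to 3′ on the strand of its gene. Capitals mark the GC box GGGGCGG and the cyclic AMP response half-site TGACG where a search of both strands found them.
Fgf2 promoter: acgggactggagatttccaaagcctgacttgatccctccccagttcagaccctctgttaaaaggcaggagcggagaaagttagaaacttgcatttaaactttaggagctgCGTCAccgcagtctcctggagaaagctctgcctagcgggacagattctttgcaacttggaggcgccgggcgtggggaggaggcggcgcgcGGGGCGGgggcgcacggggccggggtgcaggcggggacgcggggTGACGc
Nudt6 promoter: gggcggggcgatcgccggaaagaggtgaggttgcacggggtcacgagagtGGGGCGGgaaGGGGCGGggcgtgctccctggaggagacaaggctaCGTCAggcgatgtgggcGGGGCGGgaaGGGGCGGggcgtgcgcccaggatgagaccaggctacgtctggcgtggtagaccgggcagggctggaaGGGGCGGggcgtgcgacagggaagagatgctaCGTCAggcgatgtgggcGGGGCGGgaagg
The Fgf2 window held 1 GC box and 2 half-sites, and the Nudt6 window held 6 GC boxes and 2 half-sites. Among the upstream windows of equal length of 32851 RefSeq promoters, 21.0% held the GC box and 17.8% the half-site. The letters TGANTCA, the AP-1 element, and TTCNNNGAA, the STAT element, were found in neither window, against 6.7% and 7.0% of all promoters. The base content was 62.4% G and C for Fgf2 and 71.6% for Nudt6. These matches are a description of the letters in the windows. The Nudt6 window shares 147 bases with that of the neighbouring gene Spata5, which starts on the opposite strand.

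Intensities are given as log2 of the values the authors deposited, whose lowest possible reading was log2 2.21. The 16 arrays had median intensities between 14.4 and 15.1 at 50 lux (5 arrays) and between 15.3 and 15.8 at the higher doses (11 arrays). No pair of arrays was identical. Nxnl1 itself, by its brightest probe set 1425696_at, averaged log2 2.24, 2.45 and 2.57 in KO retinas at 50, 2500 and 5000 lux. In WT retinas the means were 7.57, 6.44 and 6.06, so every genotype label went with the level of the targeted gene. Values of different probe sets are not compared with each other.

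Fgf2 (1449826_a_at) rose with bright light in both genotypes. In KO retinas its log2 intensity was 2.25, 2.36 and 2.25 at 50 lux, 4.53, 5.36 and 5.10 at 2500 lux, and 4.95 and 4.76 at 5000 lux. In WT retinas it was 2.26 and 2.28 at 50 lux, 4.90, 4.70 and 5.34 at 2500 lux, and 6.04, 4.79 and 5.66 at 5000 lux. All 5 arrays at 50 lux lay close to the lowest possible reading and all 11 arrays at the higher doses lay above log2 4, with no overlap. The probe set passed the filter only through its bright-light arrays. Because no array at 50 lux reached log2 4, the fold is given against that level as a lower bound, and each p compares bright-light arrays with readings that the background step has flattened. Fgf2 was at least 2.00-fold higher in KO retinas at 2500 lux than at 50 lux (adjusted p = 1.9e-05, limma) and at least 1.81-fold higher at 5000 lux (adjusted p = 0.00025). In WT retinas it was at least 1.97-fold higher at 2500 lux (adjusted p = 8.3e-05) and at least 2.82-fold higher at 5000 lux (adjusted p = 1.5e-05). When all values below log2 4 were raised to that level before the fit, the calls were lost in KO retinas at 5000 lux (adjusted p = 0.09) and in WT retinas at 2500 lux (adjusted p = 0.059), while the other doses kept theirs. The size of the Fgf2 response is therefore bounded from below only.

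Fgf2 did not pass the test between genotypes. At 5000 lux the KO arrays averaged 4.86 ± 0.13 (SD, n = 2) and the WT arrays 5.50 ± 0.64 (SD, n = 3), a KO minus WT difference of -0.64 ± 0.31 (SE, adjusted p = 1, 95% interval -1.31 to 0.03). At 2500 lux the difference was 0.02 ± 0.28 (SE, 95% interval -0.58 to 0.62). No difference between the KO and WT light responses is given, since neither has a measured level at 50 lux. The intervals leave room for differences of more than a doubling at 5000 lux.

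Nudt6 was measured by 2 probe sets, and both rose with bright light in both genotypes. The probe set 1456945_at read log2 8.50, 8.87 and 8.77 in KO retinas at 50 lux, 10.99, 10.99 and 11.00 at 2500 lux, and 10.92 and 10.69 at 5000 lux. In WT retinas it read 6.46 and 6.36 at 50 lux, 10.92, 10.60 and 11.04 at 2500 lux, and 11.20, 11.01 and 11.08 at 5000 lux. The arrays formed 3 levels without overlap, with WT at 50 lux lowest, KO at 50 lux between, and all bright-light arrays of both genotypes together at the top.

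**Figure D1:**
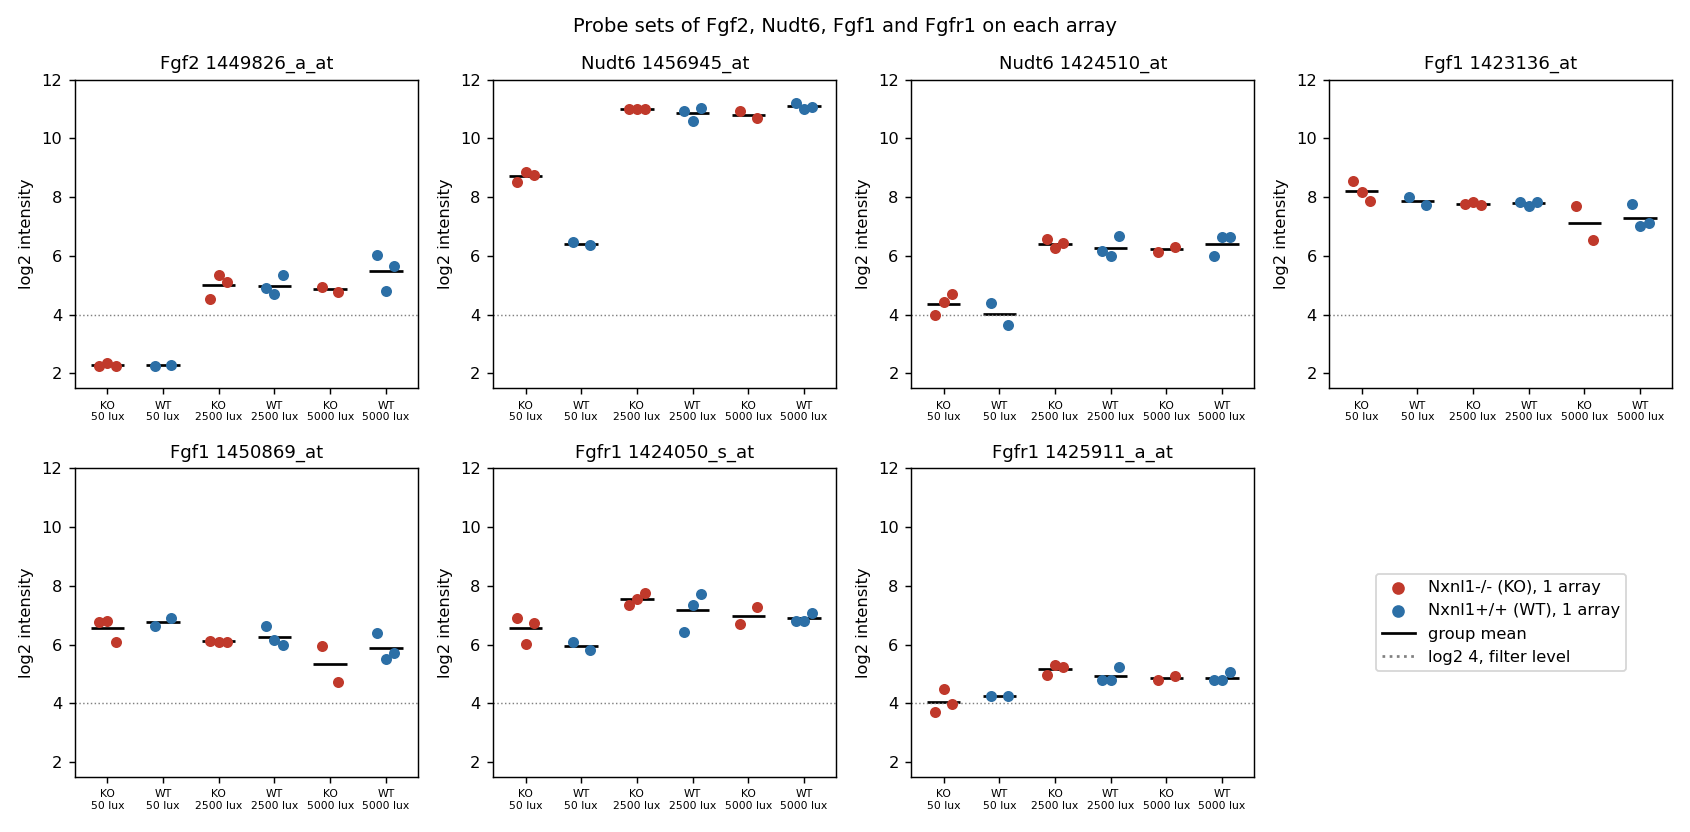
Log2 intensity (vertical axes, the same range in each panel) of the 7 tested probe sets of Fgf2, Nudt6, Fgf1 and Fgfr1 in the 6 groups (horizontal axes), KO in red and WT in blue, with 1 point per array, group means as black bars and the filter level of log2 4 dotted. Nudt6 1456945_at lay at 8.50 to 8.87 in KO and at 6.36 to 6.46 in WT retinas at 50 lux, and between 10.60 and 11.20 on all bright-light arrays.

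At 2500 lux Nudt6 1456945_at was 4.86-fold higher than at 50 lux in KO retinas, a log2 difference of 2.28 ± 0.13 (SE, adjusted p = 2.3e-07). At 5000 lux the KO difference was 2.10 ± 0.14, or 4.28-fold (SE, adjusted p = 4e-06). In WT retinas the difference was 4.45 ± 0.14 at 2500 lux, or 21.8-fold (SE, adjusted p = 2.7e-09), and 4.69 ± 0.14 at 5000 lux, or 25.8-fold (SE, adjusted p = 1.4e-09). By p it ranked 1 of the 23320 probe sets tested in each of the WT responses, and 14 and 10 in the KO responses at 2500 and 5000 lux. Neither genotype differed past the threshold between 5000 and 2500 lux, with log2 differences of -0.18 ± 0.14 in KO and 0.24 ± 0.13 in WT retinas (SE, adjusted p = 0.62 for each).

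The other Nudt6 probe set, 1424510_at, read log2 3.98, 4.42 and 4.71 in KO retinas at 50 lux, 6.56, 6.27 and 6.42 at 2500 lux, and 6.14 and 6.30 at 5000 lux. The WT arrays read 4.38 and 3.63, then 6.15, 5.99 and 6.69, then 5.99, 6.63 and 6.63 at the same doses. The bright-light arrays lay above all arrays at 50 lux in both genotypes, and KO and WT overlapped at each dose. Its log2 differences from 50 lux were 2.05 ± 0.25 at 2500 lux and 1.85 ± 0.28 at 5000 lux in KO retinas (SE, adjusted p = 8.9e-05 and 0.0015), or 4.13-fold and 3.61-fold. In WT retinas they were 2.27 ± 0.28 and 2.41 ± 0.28 (SE, adjusted p = 0.00016 and 9.2e-05), or 4.83-fold and 5.32-fold. All of these folds rest on 50 lux readings near the filter level of log2 4. With only the 5 KO arrays at 50 and 5000 lux in the fit, the KO response at 5000 lux missed the threshold (adjusted p = 0.054).

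At the rearing intensity, Nudt6 1456945_at was 4.93-fold higher in KO than in WT retinas. At 50 lux it averaged 8.71 ± 0.19 (SD, n = 3) in KO and 6.41 ± 0.07 (SD, n = 2) in WT retinas, a difference of 2.30 ± 0.14 (SE, adjusted p = 6.4e-06) with no overlap. It ranked 2 of 23320 probe sets by p in that comparison. It was the 1 member probe set of 7 that passed there, where 0.326% of all probe sets tested, or 76, passed. That number was 9 without WT replicate 2 at 50 lux and 363 without KO replicate 2 at 50 lux. With only the 5 arrays at 50 lux in the fit the adjusted p was 0.16, and 1 of the 23320 probe sets passed at all. Nudt6 1424510_at averaged 4.37 ± 0.37 (SD, n = 3) in KO and 4.0 ± 0.53 (SD, n = 2) in WT retinas at 50 lux, a difference of 0.37 ± 0.28 (SE, adjusted p = 0.54). Of the arrays at 50 lux, 2 of 3 in KO and 1 of 2 in WT retinas lay above log2 4 at 1424510_at. The WT arrays ran from 3.63 to 4.38 there, near the filter level but above the lowest possible reading of log2 2.21. Whether such dim readings narrow the genotype difference was not tested. The 2 probe sets of Nudt6 thus gave different calls for genotype, and the difference between them was not tested. Without WT replicate 2 at 50 lux the sign of the difference at 1424510_at turned (-0.01).

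At the higher doses the genotypes did not differ past the threshold. Nudt6 1456945_at averaged 10.99 ± 0.01 in KO and 10.85 ± 0.23 in WT retinas at 2500 lux (SD, n = 3 each), a difference of 0.14 ± 0.13 (SE, adjusted p = 1). At 5000 lux the means were 10.81 ± 0.16 (SD, n = 2) in KO and 11.10 ± 0.10 (SD, n = 3) in WT retinas, a difference of -0.29 ± 0.14 (SE, adjusted p = 1). In limma 0 of the 7 member probe sets passed at 2500 lux, where 0.0943% of all did, and 0 passed at 5000 lux, where 0.00429% of all did. At an unadjusted p under 0.05 the counts were also 0 and 0.

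The light response of Nudt6 1456945_at was smaller in KO than in WT retinas. The interaction, the KO response minus the WT response, was -2.16 ± 0.19 at 2500 lux (SE, adjusted p = 0.001) and -2.59 ± 0.20 at 5000 lux (SE, adjusted p = 0.00022). Over both bright doses it was -2.38 ± 0.17 (SE, adjusted p = 8.7e-05). In all 3 interaction tests it ranked 1 of 23320 by p. It was the only member probe set to pass in them, against 0.0472%, 0.0257% and 0.0643% of all probe sets tested. The interaction and the genotype difference at 50 lux share the arrays at 50 lux, so they are not separate evidence. For Nudt6 1424510_at the interaction over both doses was -0.39 ± 0.34 (SE, adjusted p = 0.67).

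**Figure D2:**
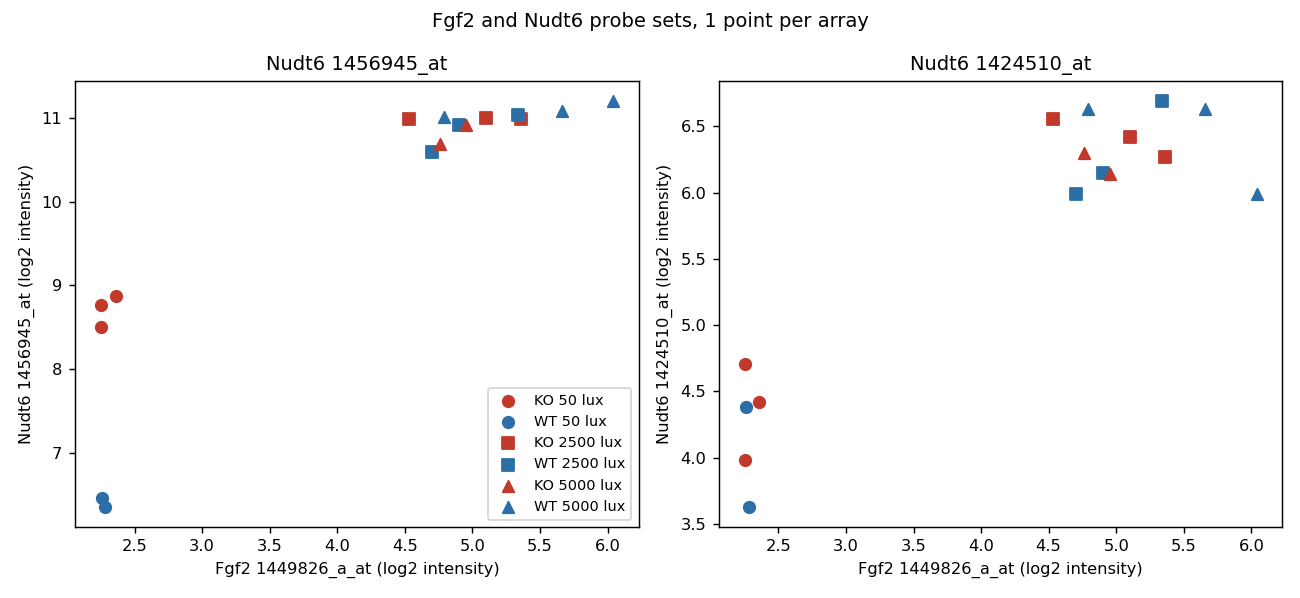
Log2 intensity of Nudt6 1456945_at (left panel) and Nudt6 1424510_at (right panel) on the vertical axes against Fgf2 1449826_a_at on the horizontal axes, 1 point per array, KO in red and WT in blue, with circles for 50 lux, squares for 2500 lux and triangles for 5000 lux. At 50 lux Fgf2 read 2.25 to 2.36 in KO and 2.26 to 2.28 in WT retinas, while Nudt6 1456945_at separated them.

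Markers of other cell types were read beside this difference. In this whole-tissue RNA, fewer cells of a type and less RNA per cell cannot be told apart. No gene of the marker lists for rods, cones, Müller glia, astrocytes, ganglion cells, endothelial cells, microglia, pigment epithelium or lens passed between KO and WT retinas at 50 lux. Summed marker intensities nevertheless lay apart in 5 of these lists besides lens. Microglia and macrophage markers summed to 214 to 262 in KO and 150 to 166 in WT retinas, with Aif1 and Itgam below log2 4 on all arrays. Endothelial and pericyte markers summed to 1142 to 1492 in KO and 930 to 980 in WT retinas, with Pecam1 and Cdh5 below log2 4 on all arrays. Cone markers summed to 12572 to 13381 in KO and 11129 to 11379 in WT retinas. Those sums, and the astrocyte sum of 5422 to 6095 in KO and 5190 to 5282 in WT retinas, were higher in KO. Single genes differed unevenly, from 0.01 for Cx3cr1 to 1.01 for Tyrobp among the microglia markers. The endothelial and pericyte genes ran from 0.06 for Pdgfrb to 0.55 for Rgs5, and the astrocyte genes from -0.01 for S100b to 1.11 for Gfap. The single cone genes went both ways, from -0.73 for Pde6c (adjusted p = 0.12, limma) to 0.54 for Opn1sw (adjusted p = 0.52). The cone sum is therefore not a shift shared by its genes. The Müller glia sum was lower in KO, at 23582 to 24535 against 26052 to 26338 in WT retinas. The differences of its 10 genes ran from -0.44 for Rlbp1 (adjusted p = 0.14) to 1.11 for Gfap (adjusted p = 0.2), which is shared with the astrocyte list. The rod, pigment epithelium and ganglion cell sums overlapped. The part of these lists in the Nudt6 difference was not tested.

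Lens RNA also moved with genotype at 50 lux. The summed intensity of 5 lens genes was 4883, 1666 and 1359 on the KO arrays and 96 and 31 on the WT arrays. In KO retinas at 2500 lux the lens sum was 106, 4324 and 84 while Nudt6 1456945_at read 10.99, 10.99 and 11.00. In WT retinas at 5000 lux the lens sum was 28, 33760 and 78 while the probe set read 11.20, 11.01 and 11.08. The lens gene with the largest difference at 50 lux, Cryaa, was 6.17 higher on the log2 scale in KO retinas (adjusted p = 0.31). With the log2 lens sum as a covariate, chosen after the data were seen, the KO minus WT difference at 50 lux was 2.40 (adjusted p = 4.7e-05). Lens sum and genotype went together on all arrays at 50 lux, so they cannot be told apart at that dose. The covariate cannot separate them there, since its slope also rests on the bright-light arrays.

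**Figure D3:**
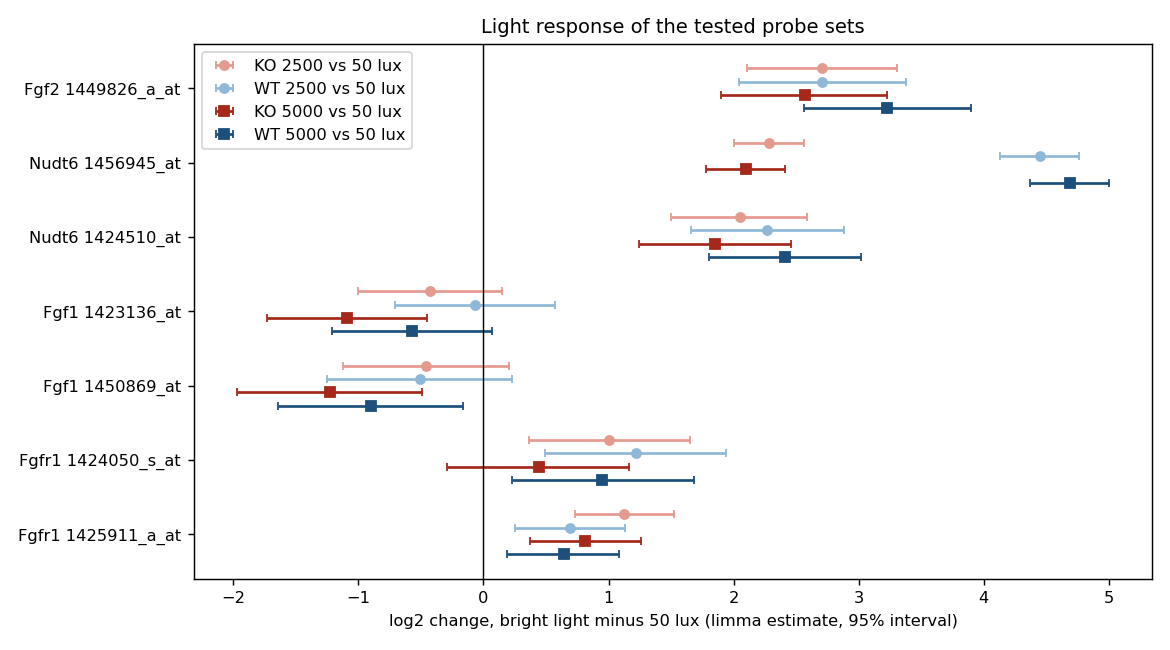
Limma log2 differences between bright light and 50 lux (horizontal axis) with 95% intervals for each tested probe set (vertical axis), KO in red and WT in blue, circles for 2500 lux and squares for 5000 lux. The WT responses of Nudt6 1456945_at, 4.45 and 4.69, lie apart from its KO responses, 2.28 and 2.10, while for the other probe sets the intervals of KO and WT overlap. Those of Fgf2 stand against 50 lux readings below the filter level and give no exact size.

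Fgfr1, the FGF receptor gene measured above the filter, was moderately higher after bright light. In KO retinas the probe set 1425911_a_at read log2 3.70, 4.47 and 3.97 at 50 lux, 4.96, 5.29 and 5.25 at 2500 lux, and 4.78 and 4.94 at 5000 lux. WT arrays gave 4.24 and 4.24, then 4.78, 4.78 and 5.23, then 4.78, 4.78 and 5.06. The bright-light arrays lay above those at 50 lux in each genotype, and several arrays shared the same low value. It rose by 1.12 ± 0.18 at 2500 lux and 0.81 ± 0.21 at 5000 lux in KO retinas (SE, adjusted p = 0.00079 and 0.024), or 2.18-fold and 1.76-fold. These folds rest on 50 lux readings near the filter level, with 1 of 3 KO arrays above log2 4. In WT retinas the differences were 0.69 ± 0.21 at 2500 lux (SE, adjusted p = 0.046) and 0.64 ± 0.21 at 5000 lux (SE, adjusted p = 0.069). The WT call at 2500 lux was lost when either WT array at 50 lux was left out (adjusted p = 0.19) and in 10 other leave-outs (adjusted p between 0.051 and 0.15, the highest without WT replicate 3 at 2500 lux). It was also lost under 6 other settings, among them quantile normalization and median centring (adjusted p = 0.054 and 0.053). The KO call at 5000 lux was lost without KO replicate 1 or 3 at 50 lux or KO replicate 2 at 5000 lux (adjusted p = 0.078, 0.053 and 0.18), and without a filter, with array weights or with only the compared arrays (0.07, 0.21 and 0.23).

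The other Fgfr1 probe set, 1424050_s_at, read log2 6.89, 6.03 and 6.72 in KO retinas at 50 lux, 7.34, 7.56 and 7.75 at 2500 lux, and 6.69 and 7.28 at 5000 lux. The WT readings were 6.07 and 5.82, then 6.41, 7.35 and 7.73, then 6.81, 6.81 and 7.08. The groups at 2500 lux lay above their own 50 lux arrays, and KO arrays at 5000 lux overlapped theirs. It rose by 1.00 ± 0.30 in KO and by 1.22 ± 0.34 in WT retinas at 2500 lux (SE, adjusted p = 0.032 for each), or 2.01-fold and 2.33-fold. At 5000 lux the differences were 0.44 ± 0.34 in KO and 0.95 ± 0.34 in WT retinas (SE, adjusted p = 0.41 and 0.096). The KO call at 2500 lux was lost without KO replicate 2 or 3 at 50 or at 2500 lux (adjusted p between 0.054 and 0.11). The WT call was lost without WT replicate 1 or 2 at 50 lux or WT replicate 2 or 3 at 2500 lux (adjusted p between 0.091 and 0.19). Without a filter on dim probe sets neither call was made (adjusted p = 0.1 for each), and with only the compared arrays the WT call was lost (adjusted p = 0.15).

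Fgf1, a ligand of the same receptors, was lower after bright light in KO retinas at 5000 lux. The probe set 1423136_at read log2 8.55, 8.18 and 7.88 in KO retinas at 50 lux, 7.75, 7.84 and 7.74 at 2500 lux, and 7.71 and 6.53 at 5000 lux. The WT arrays read 8.0 and 7.73, then 7.85, 7.69 and 7.85, then 7.75, 7.01 and 7.12. KO replicate 2 at 5000 lux was the lowest of all arrays. The KO difference from 50 lux at 5000 lux was -1.09 ± 0.30 (SE, adjusted p = 0.033), or 2.12-fold lower, and without that replicate it was -0.50 (adjusted p = 0.39). The WT difference at 5000 lux was -0.57 ± 0.30 (SE, adjusted p = 0.28).

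The Fgf1 probe set 1450869_at read log2 6.78, 6.81 and 6.10 in KO retinas at 50 lux, 6.11, 6.10 and 6.10 at 2500 lux, and 5.94 and 4.73 at 5000 lux. WT arrays gave 6.64 and 6.89, then 6.64, 6.15 and 5.98, then 6.38, 5.50 and 5.72. The same KO replicate at 5000 lux was lowest. The KO difference at 5000 lux was -1.23 ± 0.34 (SE, adjusted p = 0.036), or 2.34-fold lower, and -0.62 without that replicate (adjusted p = 0.39). The WT difference was -0.90 ± 0.34 (SE, adjusted p = 0.12). Leaving out KO replicate 1 or 2 at 50 lux also ended the KO call of both probe sets, with adjusted p between 0.055 and 0.11. For 1450869_at, KO replicate 2 or 3 at 2500 lux did so as well (adjusted p = 0.051 for each). Neither Fgf1 probe set passed in KO retinas at 5000 lux without a filter on dim probe sets (adjusted p = 0.11 for 1423136_at and 0.12 for 1450869_at). The same held with array weights (0.075 and 0.067) and with only the compared arrays (0.27 and 0.26).

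The 7 probe sets that were not tested stayed below log2 2.92 or at it on every array. These were 1441042_at of Fgf1, 1436551_at of Fgfr1, 1420847_a_at, 1433489_s_at and 1443211_at of Fgfr2, and 1421841_at and 1425796_a_at of Fgfr3. The Fgfr2 probe set 1443211_at was at the lowest possible reading on all 16 arrays and each Fgfr3 probe set on 15. Neither receptor gene has a fold here, since a reading this low bounds the level and does not measure it.

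Counted over the tested members, 5 of 7 rose in KO retinas at 2500 lux, where 8.6% of all probe sets tested rose and 19.3% passed in either direction. At 5000 lux 4 of 7 rose and 2 of 7 fell in KO retinas, against 5.54% and 5.88% of all, or 11.4% in either direction. In WT retinas 5 of 7 rose at 2500 lux, against 6.72% of all (11.8% in either direction), and 3 of 7 rose at 5000 lux, against 5.97% (10.5%). Fgf2 is among those that rose each time and passed the filter only through its bright-light arrays. Of the other 6, 4 rose at 2500 lux and 3 rose and 2 fell at 5000 lux in KO retinas, while 4 rose at 2500 lux and 2 at 5000 lux in WT retinas. The median log2 difference of those 6 was 1.06 and 0.63 in KO and 0.95 and 0.79 in WT retinas at 2500 and 5000 lux. Over all probe sets tested these medians were -0.02 and -0.02 in KO and 0.01 and 0.01 in WT retinas. The number of all probe sets called in KO retinas at 5000 lux was 2663, and 575 without KO replicate 2 or 4411 without KO replicate 1 at that dose. Between 5000 and 2500 lux, 0 of 7 passed in limma in KO, where 0.0772% of all passed, and 0 of 7 in WT retinas, where 0% did. At an unadjusted p under 0.05 the counts were 2 and 0. Averaged over the 3 doses, KO and WT retinas differed at 1 of 7, Nudt6 1456945_at (0.72 ± 0.08, SE, adjusted p = 0.0074), against 0.0172% of all probe sets.

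Genes of the surrounding pathway were set against bright light as a whole, the mean of the 4 bright-light groups minus the mean of the 2 groups at 50 lux. In that contrast 28.9% of all probe sets tested passed, 13.7% higher and 15.1% lower, with a median of -0.01. Among the members 5 of 7 were higher, Fgf2 included, and 2 of 7, both of Fgf1, were lower. Without Fgf2, which passed the filter only through its bright-light arrays, 4 of 6 were higher and 2 of 6 lower. Fgf1 1423136_at fell by 0.54 ± 0.18 (SE, adjusted p = 0.038) and 1450869_at fell by 0.77 ± 0.21 (SE, adjusted p = 0.013). Of the 16 leave-outs of 1 array, 12 ended the call of 1423136_at (among them WT replicate 1 at 50 lux, adjusted p = 0.17), as did the fit without a filter (adjusted p = 0.11), and leaving out WT replicate 2 at 50 lux ended that of 1450869_at (adjusted p = 0.063).

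Of 20 other FGF ligand genes on the array, 5 were measured, 0 rose and 1 fell, with a median of -0.10. Fgf11, an intracellular FGF homologous factor, fell by 0.70 ± 0.12 (SE, adjusted p = 0.00066). Fgf12 and Fgf14, of the same subfamily, changed by -0.41 (adjusted p = 0.12) and 0.27 without passing. Of 9 measured coreceptors and binding proteins, 1 rose and 2 fell. The heparan sulfate proteoglycan gene Sdc3 fell by 0.74 ± 0.10 (SE, adjusted p = 8.4e-05), and Fgfbp3, for a secreted FGF-binding protein, fell by 0.66 ± 0.10 (adjusted p = 0.0002). Flrt3, for a membrane protein that binds FGF receptors, rose by 0.62 ± 0.14 (SE, adjusted p = 0.0042).

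Of 15 measured genes of signalling next to the receptor, 2 rose, 1 fell and 12 did not pass, with a median of 0.01. Gab1, the adaptor that couples receptors to PI3-kinase and ERK, averaged log2 7.36, 8.29 and 7.99 in KO retinas at 50, 2500 and 5000 lux. Its WT means were 6.87, 8.14 and 8.10. It rose by 1.01 ± 0.10 over bright light as a whole (SE, adjusted p = 5.7e-06). Nras rose by 0.48 ± 0.07 (SE, adjusted p = 0.00016), and Pik3r1, the regulatory subunit of PI3-kinase, fell by 0.77 ± 0.08 (SE, adjusted p = 1.7e-05).

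Feedback inhibitors and targets of ERK moved both ways, with 6 of 16 measured genes higher and 6 of 16 lower and a median of 0.19. Dusp4, a phosphatase that switches ERK off, averaged 9.10, 7.49 and 7.76 in KO retinas at 50, 2500 and 5000 lux, and 8.82, 7.53 and 8.03 in WT retinas. It fell by 1.25 ± 0.12 (SE, adjusted p = 7.3e-06). Etv5, a transcription factor that FGF signalling induces, fell by 0.56 ± 0.10 over bright light as a whole (SE, adjusted p = 0.00094). Its separate differences from 50 lux were 0.13 at 2500 lux and -0.44 at 5000 lux in KO retinas (adjusted p = 0.59 and 0.098), and -1.14 and -0.79 in WT retinas (adjusted p = 0.00054 and 0.0075). Ccnd1, cyclin D1, rose by 0.76 ± 0.11 (SE, adjusted p = 0.00027) and the phosphatase gene Dusp5 by 0.38 ± 0.08 (SE, adjusted p = 0.0025). Of its 4 separate light responses, Ccnd1 passed in KO retinas at 2500 lux alone (1.53 ± 0.17, SE, adjusted p = 3.7e-05). None of these pathway genes passed between KO and WT retinas at 50 or at 5000 lux. At 2500 lux 1 did, the ERK target Myc, a growth-promoting transcription factor, which was higher in KO retinas by 2.10 ± 0.28 (SE, adjusted p = 0.015). It was named after its values were seen.

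**Figure D4:**
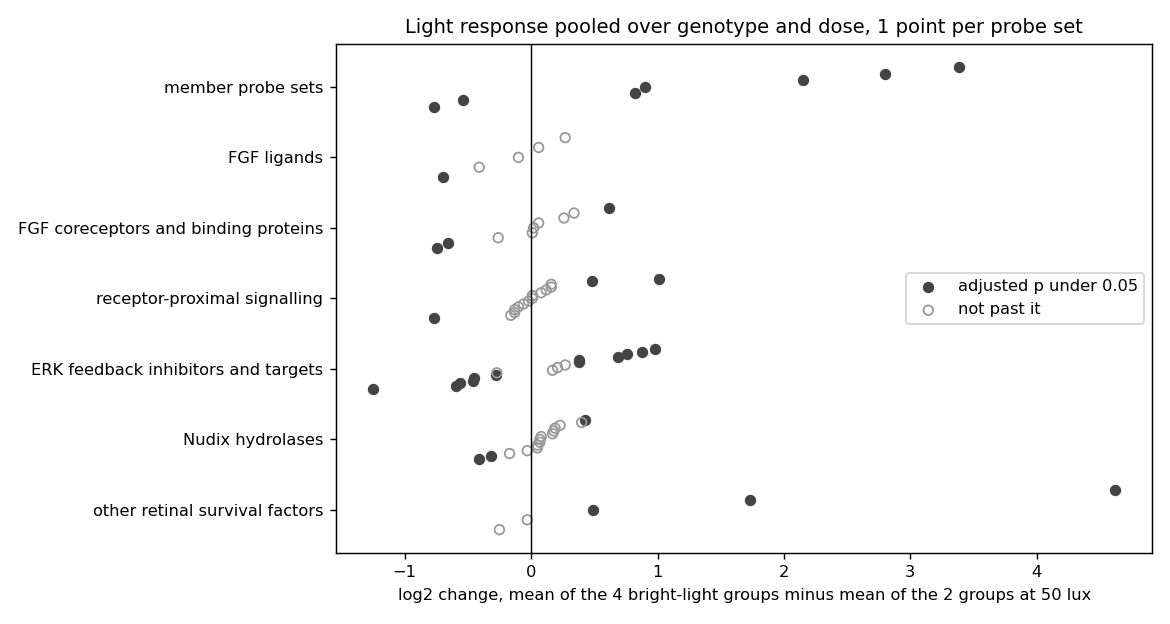
Log2 difference between the mean of the 4 bright-light groups and the mean of the 2 groups at 50 lux (horizontal axis) for the member probe sets and for the genes of each list (vertical axis), 1 point per probe set, filled where the adjusted p was under 0.05. The members reach 3.38 (Nudt6 1456945_at), while of the Nudix hydrolases 1 of 15 rose and 2 of 15 fell. The points of Fgf2 (2.80) and of the survival factors Clcf1 (1.73) and Edn2 (4.62) give no exact size, since their 50 lux means were below the filter level, for Edn2 in WT retinas.

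The rise of Nudt6 was set beside its gene family and its neighbours. Of 15 other measured Nudix hydrolase genes, 1 rose and 2 fell, with a median of 0.07. Nudt7, for a peroxisomal hydrolase, rose by 0.43 ± 0.15 (SE, adjusted p = 0.047) and passed in none of the 4 separate light responses, while Nudt3 fell by 0.41 ± 0.08 (SE, adjusted p = 0.0013) and Nudt4 by 0.32 ± 0.06 (SE, adjusted p = 0.0022). Spata5, whose annotated start lies 354 bases from that of Nudt6 on the opposite strand, averaged log2 7.70, 8.46 and 8.17 in KO retinas at 50, 2500 and 5000 lux. The WT means were 7.23, 8.13 and 8.23. It rose by 0.79 ± 0.10 (SE, adjusted p = 9.7e-05), and its KO minus WT difference at 50 lux was 0.47 ± 0.17 (SE, adjusted p = 0.25). The RefSeq spans of Nudt6 and Spata5 overlap, and their promoter windows share 147 bases. Spry1, the Sprouty gene near Fgf2 on the chromosome, changed by 0.27 ± 0.12 (SE, adjusted p = 0.11).

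Markers of retinal cell types also moved with bright light, and their part in the member results was not tested. All 7 measured rod markers fell, with a median of -0.55. Their summed intensity was 87921 to 98356, 61552 to 64813 and 74754 to 79220 in KO retinas at 50, 2500 and 5000 lux, and 93858 to 95693, 67782 to 77241 and 69726 to 75321 in WT retinas. Of 10 Müller glia markers, 3 rose and 4 fell, with a median of -0.01. At 2500 lux they ran from -1.10 (Rlbp1) to 2.15 (Vim) in KO and from -1.37 (Rlbp1) to 2.86 (Gfap) in WT retinas. Their sum was 23582 to 24535, 25973 to 27645 and 23134 to 26470 in KO retinas at the 3 doses, and 26052 to 26338, 24207 to 26749 and 24544 to 26425 in WT retinas. Müller glia are known to make FGF2. Their marker sum at 2500 lux lay above that at 50 lux in KO retinas, and the doses overlapped in WT retinas.

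Pigment epithelium markers, of which 6 of 6 measured fell, with a median of -0.94, summed to 6040 to 12067, 3479 to 7305 and 4302 to 4562 in KO and to 9611 to 13395, 5468 to 9698 and 3056 to 4688 in WT retinas. Best1 of that list was below log2 4 on all arrays. Of 4 measured microglia and macrophage markers 2 rose and of 5 endothelial and pericyte markers 1 rose. Of 5 ganglion cell markers 4 fell, and of 6 cone markers 3 fell. Beside these marker counts, 13.7% of all probe sets tested were higher and 15.1% lower under bright light as a whole.

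The genes most like the members were sought by Pearson correlation of log2 intensity over the 16 arrays among 10912 genes, as a description. The arrays share the dose effect, so any gene that moves with light scores high. Fgf2 was most like Cnn3 (r = 0.975), Arhgef2 (0.971), Rbm17 (0.967), Bcl3 (0.966) and Gbp2b (0.964). Nudt6 1456945_at was most like Sox30 (r = 0.992), Edn2 (0.989), Btc (0.988), Lrrc2 (0.985) and Cebpd (0.985). A KO excess at 50 lux is part of the pattern these genes were chosen for and is not a result about them. Fgfr1 1424050_s_at was most like Cish (r = 0.962), Scamp3 (0.959), Plec (0.950), Flot2 (0.939) and Lrp10 (0.938).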

How the data were processed

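The authors deposited a linear intensity value for each probe set on each array. Per the submitters' processing notes these were made with GCRMA, which corrects background, normalizes between arrays and summarises probes. The sources used here do not give its version. Between 30.9% and 31.5% of each array lay at the lowest value, 4.62. The background step flattens dim probe sets to that value, so folds of dim genes are bounds. Log2 was taken, and probe sets above log2 4 on at least 2 arrays were tested (23320 of 45037). In the probe set annotation 34945 had 1 gene symbol, 932 several and 9160 none. Genes outside the 6 members were read from their brightest probe set with 1 symbol (10916 genes).

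With limma 3.58.1 in R 4.3.3, a linear model of 6 group means was fitted over the 16 arrays (10 residual and 3.18 prior degrees of freedom). Every difference is a contrast of that fit, with Benjamini-Hochberg adjustment over all 23320 probe sets and a threshold of 0.05. The fit was tested on simulated data. "At least" marks a fold against a group whose arrays were all at or below log2 4, taken against that level. The number of arrays limits the precision. The arrays were treated as unpaired. Labels gave every group, and 0 columns were left unmapped.

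Every probe set of the 6 member genes is described. Of each pathway list up to 4 genes with the smallest p under bright light as a whole are named, and the 5 genes most like Fgf2, Nudt6 and Fgfr1. The members and lists were chosen with earlier results of these data known. Other filters, normalizations, variance models, array weights, a replicate block, fits on fewer arrays and leaving out each array were tried.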

Additional observations from a re-analysis of the deposited data

Results flagged for a closer look

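The response of Nudt6 1456945_at to bright light differed between genotypes by a test of the difference itself. The KO response minus the WT response was -2.16 at 2500 lux, -2.59 at 5000 lux and -2.38 over both bright doses on the log2 scale, with limma adjusted p of 0.001, 0.00022 and 8.7e-05. All 3 values rest on the same 5 arrays at 50 lux, where KO retinas read 8.50 to 8.87 and WT retinas 6.36 to 6.46. No explanation was tested.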

How the results depend on the processing

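Both Nudt6 probe sets kept their direction in every light response under every alternative that gave a value. Fgf2 did so too, but its 50 lux readings near the lowest value left no room for its direction to turn. The count of called members moved by over 1.5 times in 5 comparisons. In KO retinas at 5000 lux it was 6, and 3 without a filter on dim probe sets, 3 with array weights and 2 with only the compared arrays in the fit. At 2500 lux it was 5 in KO retinas, and 3 with a filter at log2 6, which drops Fgf2 and Fgfr1 1425911_a_at. In WT retinas at 2500 lux it was 5, and 3 without the filter, with the stricter filter and with only the compared arrays. In WT retinas at 5000 lux it was 3, and 7 with array weights, 5 with only the compared arrays and 2 with the stricter filter, which drops Fgf2. For bright light as a whole it was 7, and 5 with that filter and 6 without a filter. Between genotypes at 50 lux it was 1, and 0 with only the compared arrays. More probe sets are adjusted over without the filter, and fewer arrays estimate the spread in the smaller fits. Beyond the probe sets that the stricter filter drops, the cause of the moves was not tested. Leaving out 1 array gave 3 to 6 calls in KO retinas at 5000 lux and 3 to 5 in WT retinas at 2500 lux. Leaving out 1 array turned the sign of 4 uncalled values, with ranges of -0.20 to 0.06 for Fgf1 1423136_at in WT retinas at 2500 lux and, for Nudt6 1424510_at, -0.01 to 0.74 between genotypes at 50 lux, 0.00 to 0.35 (0.00 from below) between genotypes at 2500 lux and -0.60 to 0.15 for the interaction at 2500 lux. Over all probe sets, calls in KO retinas at 5000 lux numbered 2663, and 730 with array weights, 182 with only the compared arrays and 1526 without the filter. In WT retinas they numbered 2744 at 2500 lux and 1275 with only the compared arrays, and 2447 at 5000 lux and 5512 with array weights. Between genotypes at 50 lux they numbered 76, against 141 without the filter, 248 with array weights, 28 with the lens covariate and 1 with only the compared arrays. Leaving out 1 array gave 9 (WT replicate 2 at 50 lux) to 363 (KO replicate 2 at 50 lux) there, 575 (KO replicate 2 at 5000 lux) to 4411 (KO replicate 1 at 5000 lux) in KO retinas at 5000 lux and 2918 to 4751 at 2500 lux, against 4501. In WT retinas it gave 1127 to 3001 at 2500 lux and 1025 to 2679 at 5000 lux, both lowest without WT replicate 1 at 50 lux. The lowest KO count at 2500 lux came without KO replicate 3 of that dose. Over bright light as a whole it gave 4050 (WT replicate 1 at 50 lux) to 7276, against 6728. Same-numbered arrays correlated between -0.24 and 0.69 in their deviations from group means (36 pairs, 21 over 0.1), and 13 of 16 arrays correlated best with an array of their own number, a hint from the data and not the design. With the replicate number as a block the genotype difference of Nudt6 1456945_at at 50 lux was 2.27 (adjusted p = 6.6e-05), the interaction over both doses -2.33 (adjusted p = 0.00084), and all counts of called members stayed within 1.5 times. With the block 4613 probe sets were called in KO retinas at 5000 lux. The lens covariate was chosen after the data were seen. A fit on only the compared arrays equals the reported one for contrasts over all 6 groups. Readings near the lowest value limit Fgf2 at 50 lux, Fgfr2 and Fgfr3.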

Other observations

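Other factors known to protect retinal neurons were read beside the FGF genes, on a list of 11 genes of which 5 were measured. Under bright light as a whole 3 rose and 0 fell, and for Edn2 in WT retinas and Clcf1 in both the mean at 50 lux was below the filter level. Edn2, endothelin 2, a signal that stressed photoreceptors are known to release, averaged log2 7.52, 10.30 and 10.15 in KO retinas at 50, 2500 and 5000 lux, and 3.73, 10.15 and 10.37 in WT retinas. It was higher in KO than in WT retinas at 50 lux (adjusted p = 0.0002, limma), with WT arrays at 3.57 to 3.89, below the filter level. Clcf1, a cytokine of the CNTF receptor, averaged 3.93, 6.56 and 5.13 in KO and 3.83, 5.56 and 5.21 in WT retinas at the 3 doses. It passed over bright light as a whole (adjusted p = 0.00015), with both means at 50 lux below the filter level, so no size is given. Bdnf, brain-derived neurotrophic factor, rose by 0.49 ± 0.14 over bright light as a whole (SE, adjusted p = 0.021). Its separate differences from 50 lux were 0.55 and -0.22 in KO retinas at 2500 and 5000 lux (adjusted p = 0.086 and 0.55), and 0.85 and 0.76 in WT retinas (adjusted p = 0.033 and 0.057). Vegfa changed by -0.25 ± 0.09 (SE, adjusted p = 0.053).

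Within the 11 bright-light arrays, Fgf2 and Nudt6 1456945_at had a Pearson r of 0.70 (permutation p = 0.017, adjusted over 3 relations 0.051) and a Spearman rho of 0.69 (permutation p = 0.022, adjusted 0.066). Without the 2 arrays farthest from the median of Fgf2, r was 0.48. Fgf2 and Nudt6 1424510_at had r of -0.08 (permutation p = 0.82) and rho of 0.01 (permutation p = 0.99), and r of 0.16 without the farthest arrays. The Nudt6 probe sets had r of 0.35 (permutation p = 0.30, adjusted 0.45) and rho of 0.42 (permutation p = 0.20, adjusted 0.31), and r of -0.03 without the farthest arrays. None passed after adjustment, and the arrays come from 4 groups.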
